A study of Mus musculus with 15 samples.

Results

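Small nucleolar and long non-coding RNAs are transcripts that act as RNA and are not translated into protein. The members were taken by symbol from 3 count tables: every Snora, Snord, Scarna, Snhg or Mir symbol followed by a number, with Gas5, Malat1, Neat1, Meg3, Kcnq1ot1, H19, Rmrp, Rpph1, Rn7sk, Terc, Rian and Mirg where listed. This gave 33 of the 12897 genes found in any table, and 30 of the 33 were in all 3 tables. Rn7sk and Mirg were not listed. Snora78 was listed only in the table of the B6 treatment comparison, Mir684-1 only in the table of untreated genotypes, and Mir5109 in both tables that hold Irf1-/- mice.

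Box C/D small nucleolar RNAs pair with a target RNA and guide methylation of its ribose, box H/ACA RNAs guide the change of uridine to pseudouridine, and the Scarna genes encode guide RNAs of the Cajal body that act on spliceosomal RNAs. Most are trimmed out of introns of a host gene, which may encode a protein or, like Gas5 and the Snhg genes, a spliced RNA with little coding capacity. Rmrp and Rpph1 are the RNA parts of the ribonucleases MRP and P, which cut precursors of ribosomal and transfer RNA, Terc is the template RNA of telomerase, and Malat1, Neat1, Kcnq1ot1, Meg3, Rian and H19 are long transcripts, the last 4 of them from imprinted loci. The lining of the colon is renewed throughout life, and that growth depends on steady production of ribosomes, which most guide RNAs serve.

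The study compared C57BL/6 wildtype mice (B6) with C57BL/6 mice lacking Irf1 (Irf1-/-), by bulk RNA-seq of the distal colon. Irf1 is the gene of a transcription factor of interferon responses. The strain label was the same for both genotypes. Treated mice of each genotype received the carcinogen azoxymethane (AOM) at 7 mg/kg on day 1 and 2% dextran sodium sulfate (DSS), which injures the colon lining, from day 8 to day 11, and were taken on day 26 (D26). Untreated mice formed 3 groups: a first B6 set, which served as controls of the treated B6 mice and is called control set 1, a second B6 set, called control set 2, which was compared with untreated Irf1-/- mice, and those Irf1-/- mice, which also served as controls of the treated Irf1-/- mice. Each of the 5 groups had 3 biological replicates per the labels, which gave neither age nor sex, and the libraries were stranded and depleted of ribosomal RNA.

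Deposited totals lay between 22266607 and 22869853 counted reads per library, so depth differed little. Irf1 itself gave 3661, 3522 and 3238 reads in control set 1, 3146, 2882 and 2923 in control set 2 and 3949, 5015 and 5188 in treated B6 mice, against 1786, 2631 and 1984 in untreated and 2459, 2769 and 2241 in treated Irf1-/- mice. Every Irf1-/- library lay below every B6 library, although reads remained.

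Some libraries stood apart before any comparison was made. Xist, the long non-coding RNA of the inactive X chromosome, had 573 and 134 reads in treated B6 replicates 1 and 2 and 263 in treated Irf1-/- replicate 1, against 7288 to 83932 in the other libraries, so these 3 libraries differ from the rest in Xist and the labels do not say why. Control set 1 replicate 3 was the lowest of all 15 libraries for 5 of the 7 guide RNAs in all tables. Across genes, the slope of log2 reads on GC content was 0.14 to 0.31 per 10% of GC in the treated B6 libraries and -0.13 to 0.04 in the others. That dependence cannot be told apart from the group, so log2 values of members corrected for GC content are given beside those of treated B6 mice.

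Read levels spanned a wide range. As counts scaled to a common library total (CPM) and divided by the kilobases of the transcript, which allows levels of different genes to be compared, Rpph1 was at 11359, Rmrp at 5577 and Malat1 at 2229, and among guide RNAs Snora74a was at 158, Scarna13 at 130, Scarna10 at 127, Scarna2 at 114 and Snord17 at 69.8. Gas5 was at 46.5, Neat1 at 46.0, Kcnq1ot1 at 13.2, and Snhg7, the lowest of the host transcripts with a known length, which Snhg4 lacks, at 2.13 CPM per kilobase. The ribonuclease RNAs thus stood above every guide RNA on this scale. Across the 15 libraries the highest CPM of a member was 1.24-fold the lowest for Rmrp and 9.49-fold for H19, with a median of 1.73-fold over the 30 members in all tables. Members together took 2.49% of reads in control set 1, 2.40% in control set 2, 2.50% in untreated Irf1-/- mice, 2.02% in treated B6 mice and 2.36% in treated Irf1-/- mice, and Malat1 alone took 1.22% to 1.70% as group means.

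The 8 listed guide RNAs were long for their kind. GENCODE M21 gave them 128 to 414 bases with a median of 251.5, while the 139 guide RNA genes that were not listed had 64 to 205 bases with a median of 94. The authors kept genes with at least 5 CPM in at least 3 libraries, so the listed guide RNAs are a partial view of the family. Of the 139 genes not listed, 41 were at least as long as the shortest listed one. Short RNAs may be lost in such libraries, which was not tested.

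The first comparison asked how the genotypes differed without treatment. Snord17, a box C/D RNA from an intron of the sorting nexin gene Snx5, was lower in Irf1-/- mice than in control set 2. It was at 19.9, 27.0 and 22.4 CPM in control set 2 and at 13.4, 12.3 and 11.7 CPM in untreated Irf1-/- mice. The groups did not overlap, and the 3 Irf1-/- libraries lay close together. Snord17 fell by 0.89 on the log2 scale with an SE of 0.13 and an adjusted p of 0.00822 by edgeR's quasi-likelihood test after Benjamini-Hochberg adjustment, lower in 3 of 3 Irf1-/- libraries. It was the only member called of 32, where a call meant an adjusted p under 0.01 and a change of at least 1.5-fold, and 0.405% of all genes were called. DESeq2 also called 1 member, beside 107 of all 12588 genes.

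The size of the Snord17 difference depended on the B6 set. Control set 1 had 16.2, 17.4 and 6.39 CPM, where replicates 1 and 2 lay above all 3 Irf1-/- libraries and replicate 3, the library that was low for most guide RNAs, lay below them. Against that set with its replicate 3 included the log2 difference was -0.10 with an adjusted p of 0.892 by edgeR's quasi-likelihood test after Benjamini-Hochberg adjustment, the highest in a range from 1.65e-07 over all alternatives. The call was also lost, by the same edgeR test after Benjamini-Hochberg adjustment, without control set 2 replicate 2 (adjusted p 0.0149) or 3 (0.0274) and without Irf1-/- replicate 1 (0.0297), 2 (0.0455) or 3 (0.0475), with both B6 sets as controls (0.461), with all 15 libraries in a single fit (0.333), with the replicate block (0.0221), with the GC correction and that block (0.018) and with Xist as a covariate (0.0111). Per 100 reads of its host Snx5, Snord17 had 12.7, 16.5 and 14.2 reads in control set 2 and 8.33, 7.31 and 6.60 in Irf1-/- mice, so the separation remained relative to the host, while control set 1 gave 8.62, 9.30 and 3.62, again above the Irf1-/- libraries in replicates 1 and 2 only. Snx5 had a log2 difference of 0.08 between untreated Irf1-/- mice and control set 2, with an adjusted p of 0.752 by edgeR's quasi-likelihood test after Benjamini-Hochberg adjustment.

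Other members differed less between untreated genotypes. Rian, an imprinted transcript that hosts many guide RNAs, was at 29.0, 32.2 and 27.5 CPM in control set 2 and 36.9, 40.8 and 38.2 CPM in Irf1-/- mice, without overlap. Its log2 difference was 0.39 with an SE of 0.08 and an adjusted p of 0.0561 by edgeR's quasi-likelihood test after Benjamini-Hochberg adjustment, so it missed the threshold. Its neighbour Meg3, a transcript of the same imprinted cluster, had a log2 difference of 0.23, Mir22hg, the host of miR-22, 0.28 and Neat1, the scaffold of paraspeckles, 0.39. Snora74a, a box H/ACA RNA of Snhg4, had -0.44 and Scarna6 had -0.36. Leaving out 1 library at a time moved Snora74a to between -0.58 and -0.27. With control set 1 in place of set 2, Mir22hg turned to -0.13 and Scarna6 to 0.42, so their direction depended on the B6 set. Neat1 shrank to 0.05 with that set, while Snora74a had -0.63, Rian 0.53 and Meg3 0.24. Against control set 1, Mir3471-1 went from a log2 difference of 0.09 to -0.71 with an adjusted p of 0.00876 by edgeR's quasi-likelihood test after Benjamini-Hochberg adjustment, so it was the member called with that set. Of the 32 members, 9 did not overlap between the groups, 5 higher and 4 lower, against 15.4% of all genes, and 8 had an unadjusted p under 0.05 against 10.4% of all genes. Snhg genes and Gas5 were positive in 8 of 9 with a median log2 difference of 0.09 against control set 2 and in 5 of 9 against control set 1, beside a median of 0.00 over all genes. The guide RNAs with Rmrp, Rpph1 and Terc were positive in 5 of 10 with a median of -0.04 against control set 2 and in 7 of 10 with a median of 0.17 against control set 1. Malat1 had a log2 difference of 0.03 and Rmrp of 0.00.

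Of 30 cell type markers, edgeR called 0 between untreated genotypes and DESeq2 called 1, Muc2. The 3 goblet cell markers summed to 3565, 3161 and 4061 CPM in control set 2 and 5054, 4965 and 4907 CPM in Irf1-/- mice, with Muc2 the most abundant, and had a median log2 difference of 0.25 with 2 of 3 positive. Muc2 had 0.62 with an adjusted p of 0.0314 by edgeR's quasi-likelihood test after Benjamini-Hochberg adjustment, higher in 3 of 3 libraries. Markers of B and plasma cells, led by Igj, summed to 211, 221 and 236 CPM in control set 2 and 303, 374 and 241 CPM in Irf1-/- mice, with a median log2 difference of 0.79 over 2 genes and a lowest adjusted p of 0.243 by the same edgeR test after Benjamini-Hochberg adjustment. Control set 1 had 598, 576 and 570 CPM, above every untreated Irf1-/- library, so the direction for these markers turned with the B6 set. The part of either cell type in the values of Snord17 and the other members was not tested.

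The sequence of Snord17 is shown because it was called between untreated genotypes, and those of Snord15b and Scarna6 because their responses to treatment were of opposite sign in the 2 genotypes with no overlap of groups on the scale of each fit. Capitals mark TGATGA, the letters of the box C core, and each CTGA, the letters of box D. The sequences are GENCODE M21 transcripts of GRCm38, while the counts were made on mm9, and no positions on mm9 are given. Snord17 lies at chr2:144265979-144266216 on the minus strand within an intron of Snx5, Snord15b at chr7:99479563-99479707 on the minus strand within Rps3, where it overlaps an annotated exon, and Scarna6 at chr1:87784556-87784820 on the plus strand within an intron of Atg16l1.
Snord17: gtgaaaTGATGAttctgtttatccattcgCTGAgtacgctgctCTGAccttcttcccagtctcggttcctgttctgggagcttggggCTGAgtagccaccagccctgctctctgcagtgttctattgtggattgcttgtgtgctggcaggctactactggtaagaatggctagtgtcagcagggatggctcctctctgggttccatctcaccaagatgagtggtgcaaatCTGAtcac
Snord15b: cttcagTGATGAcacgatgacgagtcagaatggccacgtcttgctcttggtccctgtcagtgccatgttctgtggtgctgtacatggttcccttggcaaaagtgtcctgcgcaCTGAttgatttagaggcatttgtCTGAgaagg
Scarna6: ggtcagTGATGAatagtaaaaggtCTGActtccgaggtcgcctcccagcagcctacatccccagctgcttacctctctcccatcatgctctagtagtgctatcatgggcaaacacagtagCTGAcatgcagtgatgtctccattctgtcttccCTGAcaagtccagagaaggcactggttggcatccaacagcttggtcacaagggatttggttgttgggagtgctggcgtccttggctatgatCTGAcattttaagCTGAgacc
Each begins its TGATGA at base 7, and the last CTGA begins at base 231 of 238, 137 of 145 and 258 of 265. TGATGA and CTGA on the given strand were both present in 25.6% of 1558 annotated guide RNA transcripts. A match of letters is a description and not a mapped box.

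The next comparison asked what AOM/DSS changed in B6 mice. Among members the 4 smallest p values were those of Kcnq1ot1, Malat1, Mir3064 and Gas5, each with lower levels after treatment. Kcnq1ot1, the antisense RNA that silences neighbours on the paternal chromosome at its imprinted locus, was at 1344, 1278 and 1418 CPM in control set 1 and 889.9, 887 and 797 CPM at D26. Malat1, an abundant RNA of nuclear speckles, was at 17362, 16090.5 and 17459.5 CPM in control set 1 and 12786.5, 12782 and 11256 CPM at D26. In both cases every treated library lay below every control. Gas5, a host of box C/D RNAs whose name comes from growth arrest, was at 127, 159 and 141 CPM in control set 1 and 111, 104 and 80.4 CPM at D26, also without overlap. Mir3064 was counted over a microRNA precursor that lies within the helicase gene Ddx5, where it overlaps an annotated exon on the same strand. Its values were 5.90, 7.58 and 8.25 CPM in control set 1 and 4.30, 3.87 and 4.42 CPM at D26.

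None of these 4 passed the threshold. The log2 change of Kcnq1ot1 was -0.64 with an SE of 0.09 and an adjusted p of 0.0155 by edgeR's quasi-likelihood test after Benjamini-Hochberg adjustment, lower in 3 of 3 treated libraries. By the same edgeR test after Benjamini-Hochberg adjustment, Malat1 had -0.46 with an SE of 0.09 and an adjusted p of 0.0246, Mir3064 -0.78 with an SE of 0.18 and 0.0354, and Gas5 -0.52 with an SE of 0.13 and 0.0432, each lower in 3 of 3. In edgeR, 0 of 31 members were called, beside 0.0475% of all genes, and 11 members had an unadjusted p under 0.05 against 29.5% of all genes. DESeq2 called 2 members, Kcnq1ot1 and Mir3064, beside 441 of all 12643 genes. Without overlap were 10 members, 4 higher and 6 lower, beside 34.5% of all genes. The 31 members had a median log2 change of 0.03, with 17 positive, but -0.03 after the GC correction, with 14 of 30 positive.

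GC content moved with these values. Kcnq1ot1 has 40.3% GC, Malat1 41.4% and Gas5 42.5%, against a median of 50.6% over all genes. After correction for GC content the log2 change was -0.29 for Kcnq1ot1, -0.16 for Malat1 and -0.28 for Gas5, while Mir3064 kept -0.71. The log2 changes of these 3 GC-poor RNAs thus shrank, and that of Mir3064, at 47.8% GC, moved little. Mir3471-1, at 40.5% GC, was an exception, with 0.17 as counted and 0.51 after the correction. Reads of Mir3064 per 100 reads of its host Ddx5, an RNA helicase, were 0.727, 0.936 and 0.965 in control set 1 and 0.577, 0.501 and 0.661 at D26, so the groups were apart relative to the host as well. Against control set 2 the log2 change of Kcnq1ot1 was -0.61, of Malat1 -0.39, of Mir3064 -0.97 and of Gas5 -0.24. That of Mir3471-1 was 0.96 against control set 2, with an adjusted p of 0.0114 by the same edgeR test after Benjamini-Hochberg adjustment, the same adjusted p as that of Mir3064, so its size in B6 mice depended on the B6 set. With both B6 sets as controls Kcnq1ot1 passed, with an adjusted p of 0.00232 in a range of 4.17e-10 to 0.171 over all alternatives, and so did Mir3064, with 0.00355 in a range of 0.00355 to 0.15, by edgeR's quasi-likelihood test or DESeq2 after Benjamini-Hochberg adjustment. Without treated replicate 1 or 2, which were low in Xist, Kcnq1ot1 had -0.67 and -0.66 and Mir3064 -0.79 and -0.72.

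**Figure D1:**
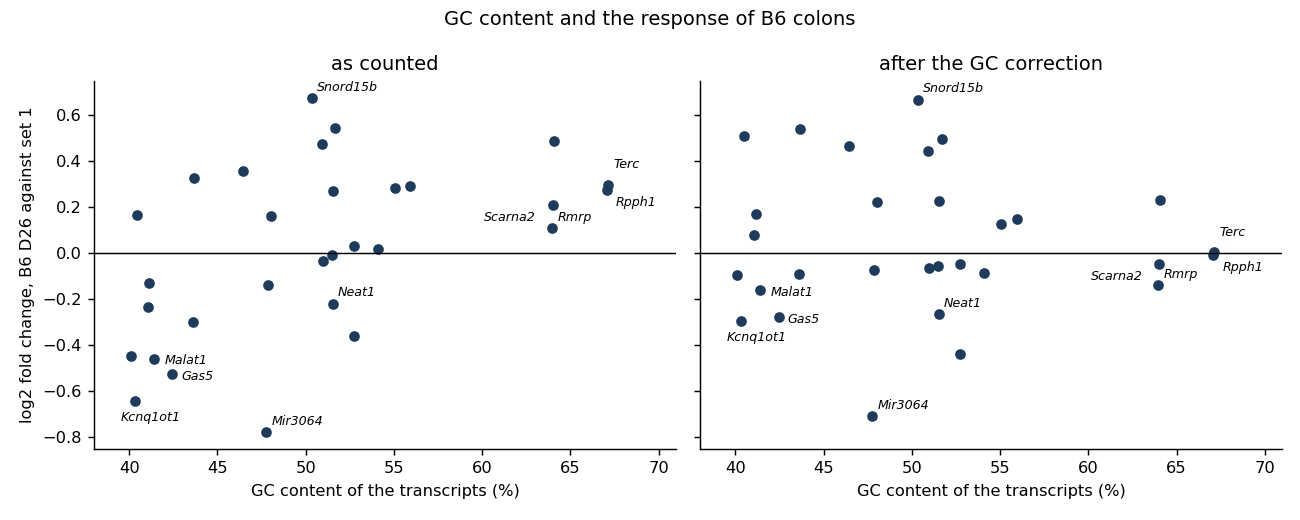
GC content of the transcripts in percent (x axis) and log2 fold change of each member in treated B6 mice against control set 1 (y axis), as counted on the left and after the GC correction on the right, 1 point per member. As counted, Kcnq1ot1, Malat1 and Gas5, at 40.3% to 42.5% GC, lie below 0, Mir3471-1, at 40.5%, lies at 0.17, and the members of 64.0% to 67.1% lie above 0, and after the correction Rpph1 lies at -0.01 and Malat1 at -0.16.

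Guide RNAs and the other short structural RNAs, taken as the 8 guide RNAs with Rmrp, Rpph1 and Terc, had positive values in treated B6 mice in 11 of 11 against control set 1 with a median log2 change of 0.30, but in 7 of 11 with a median of 0.23 after the GC correction and in 8 of 10 with a median of 0.06 against control set 2. The median over all genes was 0.01. Snord15b, a box C/D guide of ribosomal RNA, was at 9.20, 8.10 and 4.48 CPM in control set 1 and 13.3, 9.58 and 11.7 CPM at D26. The groups did not overlap, and the lowest value was that of control set 1 replicate 3. Its log2 change was 0.68 with an SE of 0.25 and an adjusted p of 0.119 by edgeR's quasi-likelihood test after Benjamini-Hochberg adjustment, was 0.67 after the GC correction, was 0.43 without control set 1 replicate 3 and was 0.07 against control set 2. Snora78, a box H/ACA RNA of the Snhg9 transcript, was at 5.24, 4.67 and 4.57 CPM in control set 1 and 6.68, 5.52 and 8.004 CPM at D26, and Scarna10 at 39.4, 42.6 and 32.3 and 53.5, 40.5 and 51.4 CPM. Snora78 did not overlap between the groups, whereas treated replicate 2 placed Scarna10 within the controls. Per 100 reads of Ncapd2, an exon of which it overlaps, Scarna10 had 69.3, 102 and 72.9 reads in control set 1. At D26 it had 144, 67.0 and 68.9, so treated replicates 2 and 3 lay below every control on that scale. By edgeR's quasi-likelihood test after Benjamini-Hochberg adjustment the log2 change of Snora78 was 0.49 with an adjusted p of 0.115, and that of Scarna10 was 0.36 with 0.119. After the GC correction Snora78, at 64.1% GC, had 0.23 and Scarna10 had 0.46. Against control set 2 Scarna10 had 0.17, while Snora78 was not listed for that set. The median of the 11 was 0.22 without control set 1 replicate 3, and 0.28 and 0.46 without treated replicates 1 and 2, which were low in Xist.

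Among host transcripts in treated B6 mice, Snhg genes and Gas5 were positive in 1 of 9 with a median log2 change of -0.17, but in 3 of 8 with a median of -0.06 after the GC correction and in 2 of 9 against control set 2. Snhg11 had the smallest p of the Snhg genes. It was at 24.3, 27.5 and 25.2 CPM in control set 1 and 23.5, 18.1 and 18.2 CPM at D26, with a log2 change of -0.36, or -0.44 after the GC correction, and an adjusted p of 0.0992 by edgeR's quasi-likelihood test after Benjamini-Hochberg adjustment. Mir17hg, which carries the miR-17 cluster, was at 7.62, 8.81 and 9.76 CPM in control set 1 and 6.59, 7.13 and 5.42 CPM at D26, a log2 change of -0.44 with an adjusted p of 0.12 by the same edgeR test after Benjamini-Hochberg adjustment, but -0.09 after the GC correction.

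Markers of goblet cells, the mucus-secreting cells of the lining, were higher in treated B6 mice than in control set 1. The 3 markers summed to 2775, 1768 and 2708 CPM in control set 1 and 3794, 8447 and 6207 CPM at D26, with Muc2 the most abundant gene, and 3 of 3 had positive log2 changes with a median of 0.80. By edgeR's quasi-likelihood test after Benjamini-Hochberg adjustment Muc2 had 1.68 with an adjusted p of 0.0255 and Agr2 0.80 with 0.0422. These marker values were not corrected for GC content. Control set 2 summed to 3565, 3161 and 4061 CPM, so treated replicate 1 lay within that untreated B6 range. The part of goblet cell content in the values of the members was not tested. In bulk tissue a change in the number of cells of a type and in RNA per cell cannot be told apart.

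In Irf1-/- mice treatment was followed by more Snora74a and by lower values of H19 and Scarna2. Snora74a was at 20.6, 21.3 and 19.5 CPM in untreated and 35.9, 37.8 and 37.7 CPM in treated Irf1-/- mice. The groups were far apart, and each held its 3 libraries close together. Snora74a rose by a log2 of 0.86 with an SE of 0.08 and an adjusted p of 0.00435 by edgeR's quasi-likelihood test after Benjamini-Hochberg adjustment, higher in 3 of 3 treated libraries. It was the only member called of 31, beside 0.252% of all genes. DESeq2 called 3 members, beside 221 of all 12692 genes. The call of Snora74a was lost, by edgeR's quasi-likelihood test after Benjamini-Hochberg adjustment, without untreated replicate 1 (adjusted p 0.029), 2 (0.0317) or 3 (0.0338) or treated replicate 2 (0.0205), and in those fits at most 5 genes of the whole table were called. It was also lost with all 15 libraries in a single fit, and over all alternatives its adjusted p, by edgeR's quasi-likelihood test or DESeq2 with Benjamini-Hochberg adjustment, ranged from 2.65e-13 to 0.0677, the value of that fit. Without treated replicate 1, which was low in Xist, the log2 change was 0.88.

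Snora74a also varied among B6 animals. Control set 1 had 38.9, 37.4 and 18.4 CPM, control set 2 had 27.0, 22.2 and 34.1, and treated B6 mice 41.3, 27.2 and 45.0, so the levels of treated Irf1-/- mice lay within the B6 range. Only control set 1 replicate 3 was as low as untreated Irf1-/- mice, and the next lowest of the 9 B6 libraries was at 22.2 CPM. The log2 change in B6 mice was 0.27 with an SE of 0.28, or 0.23 after the GC correction and 0.46 against control set 2. The difference between the responses was 0.60, with an adjusted p of 0.372 by edgeR's quasi-likelihood test after Benjamini-Hochberg adjustment. That difference was 0.63 after the GC correction, and the responses of the genotypes were not shown to differ. Per 100 reads of its host transcript Snhg4, Snora74a had 165, 155 and 155 reads in untreated and 298, 300.0 and 304 in treated Irf1-/- mice, so the separation remained relative to the spliced host. In B6 mice the same ratio was 291, 263 and 179 in control set 1 and 321, 275 and 427 at D26, which overlap.

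H19, an imprinted transcript known for high levels in fetal tissue, was at 16.1, 17.8 and 16.3 CPM in untreated and 5.29, 7.07 and 8.48 CPM in treated Irf1-/- mice. Its log2 change was -1.26 with an SE of 0.17 and an adjusted p of 0.0124 by edgeR's quasi-likelihood test after Benjamini-Hochberg adjustment, lower in 3 of 3 treated libraries but just outside the threshold, and was -1.10 without treated replicate 1, which was low in Xist. By that edgeR test with Benjamini-Hochberg adjustment it passed without treated replicate 1 (adjusted p 0.00809) or 3 (0.00957), in a range of 1.13e-09 to 0.337 over all alternatives. B6 libraries of 1 group differed more than this, with 12.3, 3.08 and 17.3 CPM in control set 1 and 4.17, 6.01 and 29.3 CPM in treated B6 mice. The log2 change in B6 mice was 0.28 with an SE of 0.74, or 0.13 after the GC correction, but -0.54 against control set 2, the sign seen in Irf1-/- mice, and the 1 treated library with a high value, replicate 3, was also the treated B6 library with many Xist reads.

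Mir3471-1 had 8.18, 7.92 and 7.55 CPM in untreated and 12.3, 16.4 and 15.3 CPM in treated Irf1-/- mice, with a log2 change of 0.90, an SE of 0.14 and an adjusted p of 0.0209 by edgeR's quasi-likelihood test after Benjamini-Hochberg adjustment. Without treated replicate 1 that adjusted p, by the same edgeR test after Benjamini-Hochberg adjustment, was 0.00809, which passes, in a range of 8.84e-06 to 0.104 over all alternatives. Scarna2, a guide RNA with a promoter of its own, had 50.8, 53.8 and 53.0 CPM in untreated and 38.8, 40.2 and 41.4 CPM in treated Irf1-/- mice, a log2 change of -0.39 with an SE of 0.06 and an adjusted p of 0.0254 by edgeR's quasi-likelihood test after Benjamini-Hochberg adjustment. Each pair of groups was without overlap. Rpph1 had 3768, 4024 and 3883 CPM in untreated and 2996, 3068 and 3421 CPM in treated mice, a log2 change of -0.30, and Neat1 had 0.28. Short structural RNAs were positive in 2 of 10 with a median log2 change of -0.20, beside 0.01 over all genes, and in 4 of 10 with a median of -0.19 without treated replicate 1. Of the 31 members, 14 did not overlap between the groups, 4 higher and 10 lower, beside 25.1% of all genes, and 10 had an unadjusted p under 0.05, beside 18.6% of all genes. Over all 31 the median log2 change was -0.07, with 10 positive.

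**Figure D2:**
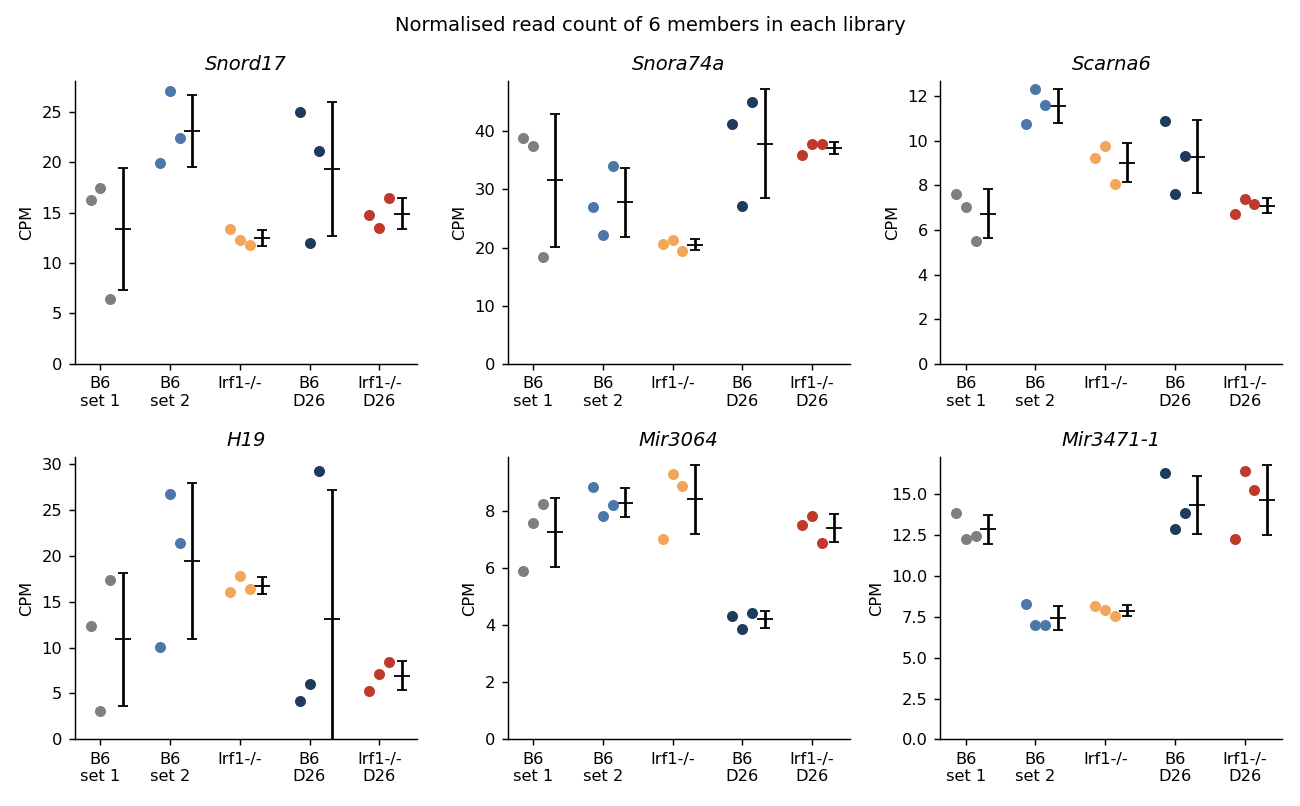
CPM (y axis) of 6 members in the 15 libraries, grouped by genotype and treatment (x axis), with 1 point per library and the mean with SD as a bar. Snora74a lies at 19.5 to 21.3 CPM in untreated and 35.9 to 37.8 CPM in treated Irf1-/- mice, while control set 1 alone spans 18.4 to 38.9 CPM.

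Leukocyte markers moved with the treated Irf1-/- group. The 5 markers summed to 259, 332 and 297 CPM in untreated and 434, 438 and 445 CPM in treated Irf1-/- mice, with Lyz2 the most abundant, and all 5 had positive log2 changes with a median of 0.59. In treated B6 mice the same sum was 373, 530.2 and 417 CPM against 405, 361 and 270.1 in control set 1, with a median log2 change of 0.36. None of the 4 T cell markers was listed. The part of infiltrating cells in the values of Snora74a, H19 and Mir3471-1 was not tested.

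The responses of the genotypes were then compared directly. Scarna2, Rpph1, Scarna6 and Snord15b had positive values in treated B6 mice and negative values in treated Irf1-/- mice. After the GC correction, though, the B6 values of Scarna2 and Rpph1 were -0.04 and -0.01 and that of Scarna6 was 0.45. Malat1, Neat1, Kcnq1ot1 and Gas5 had more positive values in the Irf1-/- response than in the B6 response. For Kcnq1ot1 that log2 difference was 0.44 as counted and 0.13 after the GC correction, and for Gas5 0.51 and 0.30. Scarna6 was at 7.62, 7.05 and 5.50 CPM in control set 1, 10.9, 7.62 and 9.32 CPM in treated B6 mice, 9.24, 9.74 and 8.08 CPM in untreated and 6.70, 7.38 and 7.18 CPM in treated Irf1-/- mice. Snord15b was at 10.04, 11.3 and 10.2 CPM in untreated and 9.35, 8.90 and 9.28 CPM in treated Irf1-/- mice, which adds to its B6 values given above. On the scale of each fit the groups of Scarna6 and of Snord15b did not overlap in either genotype and the directions were opposite, which was so for 2 of 30 members and for 1.47% of all genes. For Scarna6 in B6 mice this depended on the scale, since the highest control, replicate 1, had 173 reads and the lowest treated library, replicate 2, had 171, and on the common CPM scale, at 7.6167 and 7.6160, that treated library lay below that control.

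Relative to the hosts, and with control set 1 as the B6 controls, the separation held in 1 genotype for each RNA. Per 100 reads of its host Rps3, a protein of the small ribosomal subunit, Snord15b had 1.37, 1.11 and 0.725 reads in control set 1 and 1.66, 1.46 and 1.72 in treated B6 mice, but 1.46, 1.51 and 1.37 in untreated and 1.504, 1.46 and 1.48 in treated Irf1-/- mice. The B6 groups were apart and the Irf1-/- groups overlapped, with Rps3 itself at a log2 change of -0.23 in treated Irf1-/- mice. Control set 2 had 1.467, 1.470 and 1.652 Snord15b reads per 100 Rps3 reads, which overlap treated B6 mice. Per 100 reads of its host Atg16l1, an autophagy gene, Scarna6 had 18.0, 15.3 and 11.8 reads in control set 1 and 22.9, 16.2 and 22.5 in treated B6 mice, and 20.6, 20.6 and 16.5 in untreated and 14.9, 15.7 and 16.2 in treated Irf1-/- mice. Here the B6 groups overlapped and the Irf1-/- groups were apart.

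Tested as the Irf1-/- response minus the B6 response, the log2 difference of Scarna6 was -0.81 with an SE of 0.23 and an adjusted p of 0.117, and that of Snord15b -0.86 with an SE of 0.30 and 0.179, by edgeR's quasi-likelihood test after Benjamini-Hochberg adjustment. Scarna2 had the smallest p of the members, with a log2 difference of -0.59, an SE of 0.13 and an adjusted p of 0.077 by edgeR's quasi-likelihood test after Benjamini-Hochberg adjustment. By the same edgeR test after Benjamini-Hochberg adjustment, Mir3471-1 had 0.73 with an adjusted p of 0.102, Rpph1 -0.57 with 0.116, Malat1 0.41 with 0.138 and Neat1 0.50 with 0.165. After the GC correction the log2 differences of Scarna2, Mir3471-1, Rpph1 and Malat1 shrank to -0.36, 0.43, -0.28 and 0.14, while Neat1 had 0.53, Scarna6 -0.79 and Snord15b -0.86. In edgeR 0 of 30 members were called, beside 0.016% of all genes, and 13 had an unadjusted p under 0.05 beside 16.9% of all genes. DESeq2 called 1 member, Scarna2, beside 75 of all 12483 genes. Mir3471-1 turned to -0.05, Scarna6 shrank to -0.03 and Neat1 shrank to 0.17 when control set 2 stood for the B6 controls. For Snord15b the B6 part of the difference was 0.68 against control set 1 and 0.07 against control set 2. For short structural RNAs the median log2 difference was -0.46 with 1 of 10 positive, -0.30 with 2 of 10 after the GC correction and -0.20 with 2 of 10 with control set 2.

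**Figure D3:**
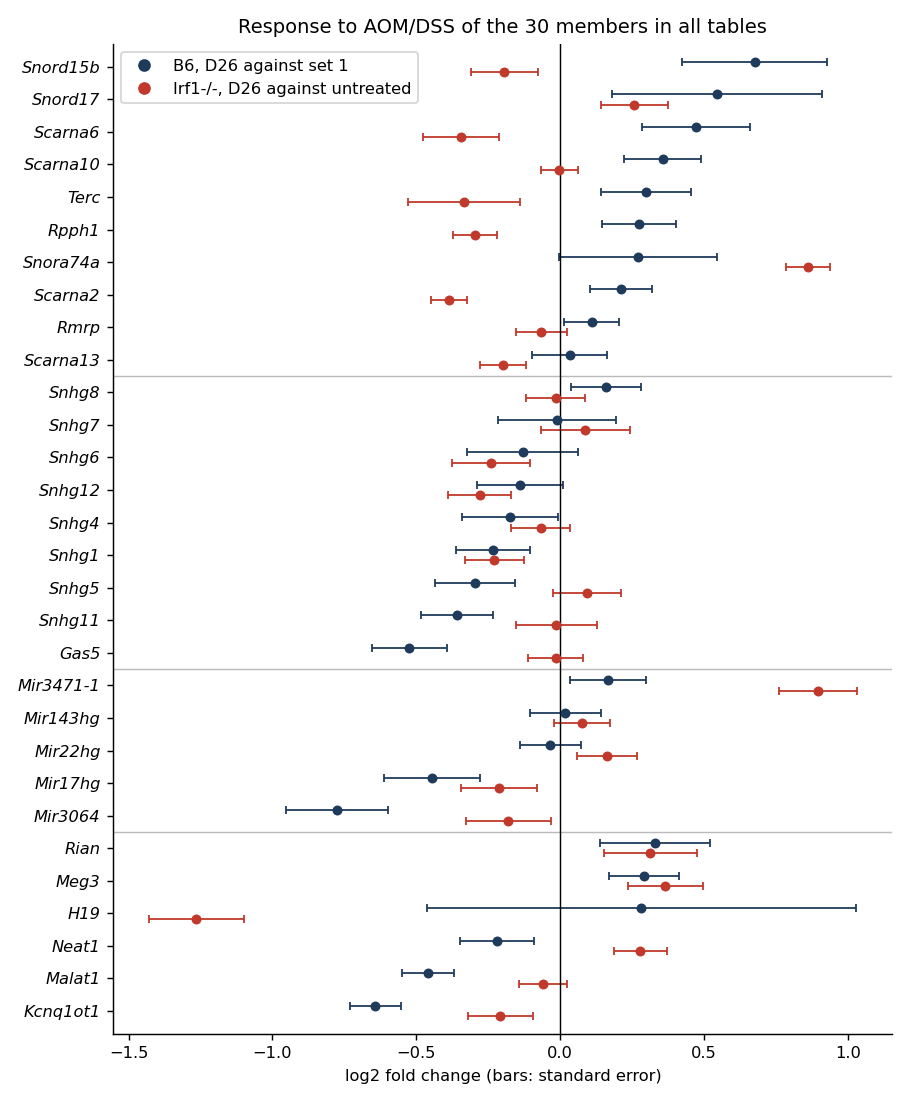
Log2 fold change (x axis, bars are SE) of the 30 members in all tables (y axis, by class) in treated B6 mice against control set 1 and in treated Irf1-/- mice against untreated Irf1-/- mice. Snord15b lies at 0.68 in B6 and -0.19 in Irf1-/- mice and Scarna6 at 0.47 and -0.34, although against control set 2 the B6 values are 0.07 and -0.30, and Snora74a lies at 0.86 in Irf1-/- mice.

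Between treated genotypes, Mir3064 was at 4.30, 3.87 and 4.42 CPM in B6 and 7.50, 7.83 and 6.87 CPM in Irf1-/- mice, clearly apart. The log2 difference was 0.80 with an SE of 0.16 and an adjusted p of 0.0425 by edgeR's quasi-likelihood test after Benjamini-Hochberg adjustment, higher in 3 of 3 Irf1-/- libraries, and 0.74 after the GC correction. With all 15 libraries in a single fit it passed, with an adjusted p of 0.0035 in a range of 0.0035 to 0.235 over all alternatives, by edgeR's quasi-likelihood test after Benjamini-Hochberg adjustment. Neat1, which holds paraspeckles together, was at 769, 949.9 and 761 CPM in treated B6 and 1081, 1282 and 1282 CPM in treated Irf1-/- mice, again without overlap, with a log2 difference of 0.54 and an adjusted p of 0.0578 by the same edgeR test after Benjamini-Hochberg adjustment. Its GC content is 51.5%, near the median, and its corrected log2 difference was 0.59. Kcnq1ot1 had 0.49 as counted and 0.16 after the correction, Malat1 0.35 and 0.07, Rpph1 -0.38 and -0.14, and Scarna2 -0.33 and -0.12. Those 4 log2 differences shrank with the correction. Scarna10 had -0.37 as counted and -0.46 after it. Short structural RNAs were positive in 0 of 10 with a median log2 difference of -0.34, and in 3 of 10 with a median of -0.13 after the GC correction. In edgeR 0 of 30 members were called, beside 0.385% of all genes, and 11 had an unadjusted p under 0.05 beside 22% of all genes. DESeq2 called 1 member, Mir3064, beside 270 of all 12483 genes. Without overlap were 11 members, 6 higher and 5 lower, beside 28.1% of all genes. Colonocyte markers were lower in treated Irf1-/- mice in 5 of 5, with a median log2 difference of -0.29. Markers of B and plasma cells had a median of -0.54 with 1 of 3 positive, goblet cells -0.02 and leukocytes -0.09. Of the 2 enteric neuron and glia markers, 1 had 0.89, with an adjusted p of 0.045 by edgeR's quasi-likelihood test after Benjamini-Hochberg adjustment. The part of these cell types in the values of the members was not tested.

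The B6 control sets were set against each other because they differ in nothing the labels give. Mir3471-1 was at 13.9, 12.2 and 12.4 CPM in control set 1 and 8.30, 6.98 and 7.01 CPM in control set 2. The sets were apart without overlap, with a log2 difference of -0.79, an SE of 0.14 and an adjusted p of 0.0371 by edgeR's quasi-likelihood test after Benjamini-Hochberg adjustment, lower in 3 of 3 libraries of set 2. Scarna6 was at 7.62, 7.05 and 5.50 CPM in set 1 and 10.8, 12.3 and 11.6 CPM in set 2, a log2 difference of 0.78 with an adjusted p of 0.0568 by the same edgeR test after Benjamini-Hochberg adjustment. The other named members were Snord17 with 0.79, Snord15b with 0.61, Mir22hg with -0.40 and Gas5 with -0.28. Without control set 1 replicate 3 Snord17 had 0.46, and leaving out 1 library at a time moved Snord15b to between 0.36 and 0.82. In edgeR 0 of 30 members were called, beside 0.0644% of all genes, and 7 had an unadjusted p under 0.05 beside 17.2% of all genes. DESeq2 called 2 members, beside 144 of all 12417 genes. Without overlap were 7 members, 4 higher and 3 lower, beside 21.4% of all genes. Among the markers, Igj, the joining chain of secreted antibodies, was at 583, 568 and 567 CPM in set 1 and 207, 215 and 235 CPM in set 2, and fell by 1.39 on the log2 scale with an adjusted p of 7.44e-05 by edgeR's quasi-likelihood test after Benjamini-Hochberg adjustment. Goblet cell markers, whose sums in both sets are given above, were higher in set 2 in 3 of 3 with a median log2 difference of 0.62, and DESeq2 called Agr2. Leukocyte markers, led by Lyz2, summed to 270.4, 311 and 241 CPM in set 2 and were lower than in set 1 in 5 of 5 with a median log2 difference of -0.33. In treated B6 mice against set 1 the medians of these lists were 0.80 and 0.36. The part of plasma cells, goblet cells and leukocytes in the values of the members was not tested.

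Mature sequences from RefSeq are shown for the microRNA members whose values stood out, with bases 2 to 8, the seed that pairs with targets, in capitals. The deposited values are reads over the precursor or its host transcript and not levels of the mature microRNA.
mmu-miR-3064-5p: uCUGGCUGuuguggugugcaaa
mmu-miR-3064-3p: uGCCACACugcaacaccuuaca
mmu-miR-3471: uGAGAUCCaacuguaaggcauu
mmu-miR-675-5p: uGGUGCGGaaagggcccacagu
mmu-miR-675-3p: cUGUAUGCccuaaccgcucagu
The pair named miR-675 is cut from H19. No seed is shared among these 5. In Mir17hg, by contrast, miR-17-5p and miR-20a-5p share the seed AAAGUGC, and miR-19a-3p and miR-19b-3p share GUGCAAA.

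Proteins that bind or process these RNAs, and imprinted neighbours of 3 of them, were followed through 10 lists with 92 measured genes, 2 of them such neighbours, and edgeR called 0 of them in each of the 6 comparisons, while DESeq2 called 1, Znhit3, lower in treated Irf1-/- mice with a log2 change of -0.64. In treated B6 mice 5 were higher and 16 lower at an unadjusted p under 0.05, beside 29.5% of all genes in either direction, and in treated Irf1-/- mice 1 was higher and 6 lower, beside 18.6% of all genes. These shares of the 92 lay below those of all genes. The B6 values of these lists are as counted against control set 1, with no correction for GC content. The part of the GC dependence of treated B6 libraries in them was not tested. The 4 box C/D proteins had a median log2 change of -0.12 in treated B6 mice, with Nop58 at -0.45 and the methyltransferase Fbl at -0.15, and -0.00 in treated Irf1-/- mice. The 5 box H/ACA genes had -0.12 in B6 mice and 0.03 in Irf1-/- mice, with Nhp2 at 0.48 and the pseudouridine synthase Dkc1 at -0.27 in B6 mice. Nhp2 and Dkc1, partners in the same particle, had values of opposite sign. The 13 assembly factors had a median of -0.05 in B6 mice, with Tgs1 at -0.48 and Pih1d1 at 0.33, and the 9 proteins of RNase P and MRP had -0.03, with Rpp40 at -0.41 and Rpp25l at 0.28. The 6 proteins of the 7SK particle had -0.01, with Larp7 at -0.28 and Ccnt2 at -0.16, although the RNA itself was not listed. Paraspeckle proteins, the partners of Neat1, had a median of -0.11 over 11 genes in B6 mice, with Matr3 at -0.44 and Cpsf6 at -0.22, and -0.04 in Irf1-/- mice. MicroRNA processing had -0.06 over 13 genes, with Eif2c3 at -0.35 and Tnrc6b at -0.18. Nonsense-mediated decay, which removes spliced host transcripts, had 0.02 over 10 genes, with Upf2 at -0.44 and Smg1 at -0.34, and the exosome had -0.03 over 19 genes, with Skiv2l2 at -0.39 and Zcchc7 at -0.30. Among imprinted neighbours of these RNAs, Cdkn1c, a growth inhibitor of the Kcnq1ot1 locus, had 0.80 and Kcnq1 had 0.05 in B6 mice, and Dlk1, Igf2, Phlda2 and Dio3 were not listed. In treated Irf1-/- mice the medians of the 10 lists lay between -0.13 and 0.03.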

How the data were processed

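RNA of whole distal colon (TRIzol, then RNeasy) was sequenced from rRNA-depleted stranded Kapa libraries as paired reads, 15 libraries in 5 groups of 3. The authors deposited read counts per gene in 3 tables. Per the submitters' processing notes and the study's methods, reads were aligned to mm9 with TopHat2 2.0.9 and Bowtie 1.0.0 and counted with featureCounts, and genes with at least 5 CPM in at least 3 libraries were kept. The authors' 36 columns of CPM and log CPM and their fold change and p columns were not used.

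Each comparison was fitted on all genes of its groups' table, or on the genes shared by its tables (12483 for the response difference and treated genotypes, 12417 for the control sets), with edgeR 4.0.16 (R 4.3.3, limma 3.58.1), TMM scaling and the quasi-likelihood test, and p-values were Benjamini-Hochberg adjusted over those genes. A call needed an adjusted p under 0.01 and a 1.5-fold change, the study's thresholds. At these thresholds the paper reported more genes than the main fit here called, for the untreated genotypes and for both treatment responses. A low count of calls here is thus no measure of how many genes changed. Named genes were the transcripts listed by name, every called member, the 3 smallest p per direction and comparison, the most abundant member of each class, members missing from a table, hosts, and of each other list the called genes or the 2 with the smallest p. Genes named beyond this rule were chosen after their values were seen. The members and lists (10 of binding and processing proteins or imprinted neighbours, 11 of cell type markers) were chosen with earlier results of these data known. Alternatives were RLE size factors, DESeq2 1.42.0, a filter of 10 CPM, 1 fit of all 15 libraries, a block for the replicate number, an adjusted p under 0.05, a GC correction (a lowess curve per library, span 0.3, with GC content from GENCODE M21 for 99.2% of genes), other B6 controls, each replicate left out, and, chosen after seeing the data, log2 Xist CPM as a covariate. Levels are CPM on TMM-scaled totals of the 12370 genes in all tables. RefSeq matched 32 of 33 members. Python 3.11.15, numpy 2.4.6 and matplotlib 3.10.9 drew the figures. The result of 1 marker list is not reported here. The scripts were tested on simulated data. Counts of members went down to 70 reads, so counting error limits the least abundant ones.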

Additional observations from a re-analysis of the deposited data

Results flagged for a closer look

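Scarna6 and Snord15b had log2 changes of opposite sign after treatment in the 2 genotypes, and on the scale of each fit no treated library overlapped its controls, but on the common CPM scale Scarna6 overlapped in B6 mice, with control set 1 replicate 1 at 7.6167 and treated replicate 2 at 7.6160. The Irf1-/- response minus the B6 response was -0.81 on the log2 scale for Scarna6, with an adjusted p of 0.117, and -0.86 for Snord15b, with an adjusted p of 0.179, by edgeR's quasi-likelihood test after Benjamini-Hochberg adjustment, so neither difference passed the threshold. Scarna6 ranged from -0.94 to -0.03 over the alternatives, the last with control set 2 in place of set 1. Against control set 2 the B6 response was -0.30 for Scarna6, the same sign as in Irf1-/- mice, and 0.07 for Snord15b, and without control set 1 replicate 3 that of Snord15b was 0.43. Per 100 reads of the host Rps3, Snord15b overlapped in Irf1-/- mice, with 1.46, 1.51 and 1.37 untreated and 1.504, 1.46 and 1.48 treated, and per 100 reads of the host Atg16l1, Scarna6 overlapped in B6 mice, with 18.0 in control set 1 replicate 1 and 16.2 in treated replicate 2.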

How the results depend on the processing

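For 36 results of named members, 597 alternatives were run, and 552 kept the direction and the side of the threshold, 16 fell below it, 25 rose past it and 4 turned the direction. The 4 were the untreated difference of Mir22hg with control set 1 (-0.13), that of Scarna6 with control set 1 (0.42) and with both sets (0.030), and the response difference of Mir3471-1 with control set 2 (-0.055). The cause was not tested. Of these results, only Snord17 between untreated genotypes and Snora74a in treated Irf1-/- mice passed the threshold in the main fit. Only they could fall below it, and they did so in 11 of 17 and 5 of 15 alternatives. For the other results, keeping the side meant staying uncalled, and their size could still change. Members called between untreated genotypes went from 1 to 0 with all 15 libraries in 1 fit, the replicate block, the GC correction with that block, the Xist covariate and both B6 sets, and were 0 to 1 when a replicate was left out. In treated B6 mice they went from 0 to 2 with DESeq2, the single fit of 15 libraries, an adjusted p under 0.05 and both B6 sets, and stayed at 0 when a replicate was left out. Of all 12643 genes, DESeq2 called 441 and an adjusted p under 0.05 with 1.5-fold called 430 there, against 6 in the main fit. In treated Irf1-/- mice members called went from 1 to 3 with DESeq2 and an adjusted p under 0.05 and to 2 with the replicate block, alone or with the GC correction, and were 0 to 3 when a replicate was left out. Of all 12692 genes, DESeq2 called 221 and an adjusted p under 0.05 with 1.5-fold called 169 there, against 32 in the main fit. DESeq2 called 1 for the response difference, 1 between treated genotypes and 2 between control sets, the single fit called 1 between treated genotypes, and an adjusted p under 0.05 gave 1 in each of the last 2. Over all genes, DESeq2 called 75, 270 and 144 in those comparisons, in that order. An adjusted p under 0.05 with 1.5-fold gave 184 genes between treated genotypes and 51 between control sets. Same-numbered replicates did not pair, with correlations of -0.249 to 0.248 across pairs of same-numbered libraries. Scaling alternatives moved the median of all genes by at most 0.03 on the log2 scale. A filter of 10 CPM gave no value for members below it, and the single fit none for members missing from a table. With 3 libraries a group, members at 4 to 10 CPM vary by counting alone, small differences could not be detected, and the GC dependence of treated B6 libraries cannot be told apart from treatment.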

Other observations

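Cell type markers gave the following medians of log2 change, as counted and, for B6 mice, against control set 1. Colonocyte markers had 0.18 in treated B6 and 0.00 in treated Irf1-/- mice, smooth muscle 0.02 and 0.03, fibroblasts 0.11 and 0.28, endothelium 0.24 and 0.29, and B and plasma cells -0.45 and -0.28. Of the enteric neuron and glia markers 2 of 6 were listed. Fat and red cells had 1 of 3 markers each, at -1.25 and 0.02 in treated B6 mice. In edgeR 0 markers were called in either treatment comparison, 11 of 31 in B6 and 11 of 30 in Irf1-/- mice had an unadjusted p under 0.05, beside 29.5% and 18.6% of all genes, and DESeq2 called 3 in B6 mice and 2 in Irf1-/- mice. Rn45s, the precursor of ribosomal RNA, took 0.623% to 1.27% of reads.

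Mir5109 reads spread widely within groups, with 257, 272 and 525 in control set 2, 807, 456 and 241 in untreated and 883, 169 and 82 in treated Irf1-/- mice. Mir684-1 had 95, 167 and 72 reads in control set 2 and 93, 156 and 124 in untreated Irf1-/- mice. Terc lay between 4.84 and 8.45 CPM in all 15 libraries. Meg3 had its highest group mean in treated Irf1-/- mice, at 72.3, 85.4 and 56.4 CPM. That group overlapped treated B6 mice, at 48.5, 64.1 and 59.1, and untreated Irf1-/- mice, at 53.1, 56.1 and 57.3.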
